A study of Rattus norvegicus with 6 samples.

Results

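Macrophages are the resident phagocytes of the dermis, where they clear dead cells, debris and microbes and can be joined by monocytes from the blood. Their presence in bulk tissue is commonly read from a small set of transcripts, each tied to a different part of the phagocyte's work. The genes described here are 6 such markers of the rat. Cd14 and Cd163 encode receptors of the cell surface, Cd68 a glycoprotein of lysosomes and endosomes, Aif1 (also called Iba1) an actin-binding protein of macrophages and microglia, Lyz2 the secreted enzyme lysozyme, and C1qa a chain of complement component C1q. They are shared with related cells to different degrees: Lyz2 is also made by neutrophils, and Cd14 is best known from blood monocytes. Markers of such other cells were not analysed here, so their part in the values below was not tested. The 6 genes were taken by their Ensembl identifiers from count tables of 33692 features each, and all 6 were found and passed the filter on low counts. The deposited tables hold no gene symbols, and the pairing of identifiers with these names comes from the definition of the set: ENSRNOG00000037563 for Cd68, ENSRNOG00000010253 for Cd163, ENSRNOG00000017819 for Cd14, ENSRNOG00000000853 for Aif1, ENSRNOG00000005825 for Lyz2 and ENSRNOG00000012807 for C1qa.

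The tissue was whole back skin of rats. One group had received afatinib, an oral drug that binds covalently to the kinases of the ErbB family, and the other had received vehicle, with 3 libraries in each group. The labels used here give no strain, sex, age, dose or length of treatment. They do not say either whether each library is a different animal, so every p-value refers to the spread among the libraries, part of which may be technical. All cell types of the skin contributed to each library. A change in the number of macrophages, in the RNA of each macrophage or in the RNA of the other cells therefore cannot be told apart.

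Total counts lay between 15304166 and 16840331 in the afatinib libraries and between 17426909 and 18494281 in the vehicle libraries. The members were well covered, with 386 to 13029 counts per gene and library, so that counting error alone came to between 0.88% and 5.09% of a value. Afatinib replicate 3 stood apart from the other afatinib libraries. On the first principal component of log2 CPM, which carried 60.2% of the variance, it scored 17.7, against -89.1 and -55.4 for afatinib replicates 1 and 2, and the vehicle libraries scored 27.8, 86.6 and 12.5. The group differences, spreads and ratios that moved most without this library are also given without it. Levels are CPM, a gene's share of the counts of its library, with library sizes scaled by TMM, which equalises the bulk of genes between libraries. The TMM factors were 1.109, 1.113 and 0.915 in afatinib replicates 1, 2 and 3. In vehicle replicates 1, 2 and 3 they were 0.968, 0.908 and 1.008. As shares, levels also depend on the other RNA of a library, and this dependence was not tested. Levels are not divided by gene length and are therefore compared between libraries of the same gene only. Sums over the markers, given further below, weigh the genes unequally for the same reason. Group differences are log2 fold changes of afatinib over vehicle from edgeR's quasi-likelihood test, with p-values adjusted over all 15497 tested features by the Benjamini-Hochberg method.

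Cd163, Cd14, Lyz2, Aif1 and Cd68 had higher means in afatinib-treated than in vehicle-treated skin, by 3.21-, 2.17-, 1.48-, 1.39- and 1.24-fold in that order, and C1qa had a lower mean, at 0.764 of the vehicle value. The surface receptors Cd163 and Cd14 had the largest differences, and for them, as for Aif1 and Cd68, afatinib replicates 1 and 2 lay farther from the vehicle mean than replicate 3. None of the 6 genes passed an adjusted p of 0.05 in edgeR with all 6 libraries, and neither did any other feature (0% of 15497). At an unadjusted p under 0.05, edgeR's test listed 3 of the 6 members, all higher after afatinib, where 10.3% of all tested features were listed as higher. The groups did not overlap in 2 of the 6 members, both higher after afatinib, where 12.9% of all tested features were higher without overlap. The same 2 members, Cd163 and Cd14, had a fitted difference over 2-fold, where 7.32% of all tested features were higher by that much. The median log2 fold change of the 6 genes was 0.52, against -0.00 over all tested features.

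**Figure D1:**
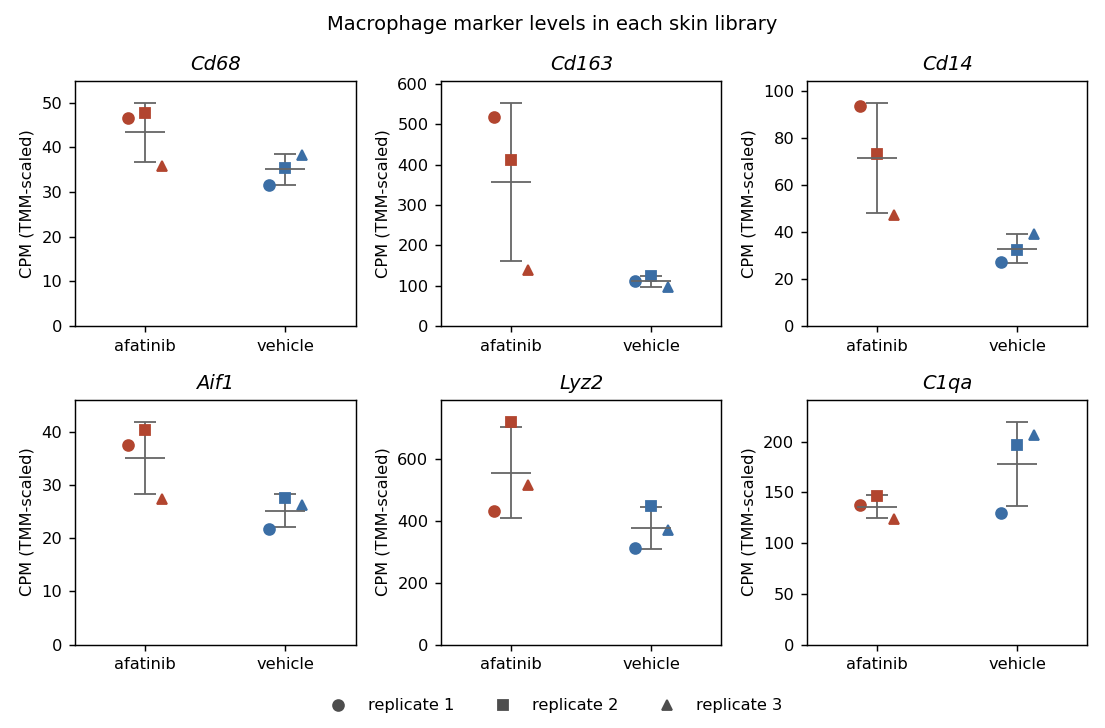
TMM-scaled CPM of each marker (vertical axis, starting at 0) in the 3 afatinib and 3 vehicle libraries, with symbols for the replicates and bars for the mean ± SD of each group. Afatinib replicates 1 and 2 lie far above the vehicle libraries for Cd163 and Cd14, replicate 3 lies close to them, and C1qa is the marker with the lower afatinib mean.

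CD163 is the scavenger receptor through which tissue macrophages take up haemoglobin bound to haptoglobin. Cd163 had 519, 412 and 138 CPM in afatinib replicates 1, 2 and 3, against 112, 124 and 97.2 CPM in vehicle replicates 1, 2 and 3. The groups did not overlap, but the first 2 afatinib libraries were 4.68 and 3.71 times the vehicle mean, and the third was 1.25 times that mean. Cd163 averaged 356 ± 196 CPM in afatinib and 111 ± 13.3 CPM in vehicle libraries (SD, n = 3 each). The log2 fold change was 1.68 in edgeR (quasi-likelihood test, unadjusted p = 0.0106, adjusted p = 0.197). Limma voom placed the log2 fold change at 1.47 with a standard error of 0.46 and a 95% interval of 0.37 to 2.56. Only 2.79% of the tested features had a higher log2 fold change in edgeR than Cd163.

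The call for Cd163 depended on the test and on single libraries. DESeq2 called it with all 6 libraries (log2 fold change 1.69, SE 0.46, adjusted p = 0.0108), where 3.31% of the 16865 features with an adjusted p were called as higher. Without afatinib replicate 3 the log2 fold change was 2.06 and edgeR's adjusted p was 0.0173, where 5.18% of the 16014 features of that fit were called as higher. With each of the other 5 libraries removed in turn, edgeR's adjusted p for Cd163 lay between 0.321 and 0.457. In DESeq2 the call was lost without afatinib replicate 1 (adjusted p = 0.112), afatinib replicate 2 (0.138), vehicle replicate 1 (0.0954) or vehicle replicate 3 (0.0823).

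CD14 binds bacterial lipopolysaccharide and hands it to Toll-like receptors on monocytes and macrophages. Cd14 had 93.6, 73.2 and 47.1 CPM in afatinib replicates 1, 2 and 3, against 27.0, 32.2 and 39.2 CPM in vehicle replicates 1, 2 and 3. Every afatinib library lay above every vehicle library, with replicate 3 again the lowest of its group. Cd14 averaged 71.3 ± 23.3 CPM in afatinib and 32.8 ± 6.13 CPM in vehicle libraries (SD, n = 3 each). The log2 fold change was 1.12 in edgeR (quasi-likelihood test, unadjusted p = 0.0058, adjusted p = 0.191), and limma voom gave 1.08 with a standard error of 0.28 and a 95% interval of 0.41 to 1.75. Among tested features, 6.03% had a higher log2 fold change than Cd14. DESeq2 called Cd14 with all 6 libraries (log2 fold change 1.13, SE 0.32, adjusted p = 0.0152). Without afatinib replicate 3, edgeR called it as well (log2 fold change 1.34, adjusted p = 0.0272). Without any of the other 5 libraries its adjusted p in edgeR lay between 0.315 and 0.457. In DESeq2 the Cd14 call was lost without afatinib replicate 1 (adjusted p = 0.104), afatinib replicate 2 (0.13), vehicle replicate 1 (0.133) or vehicle replicate 2 (0.0958).

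The place of afatinib replicate 3 differed between the receptors. On the log2 scale it lay at 0.399 of the distance between the vehicle mean and the mean of afatinib replicates 1 and 2 for Cd14, and at 0.157 of that distance for Cd163. As values of 1 library these were not tested.

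**Figure D2:**
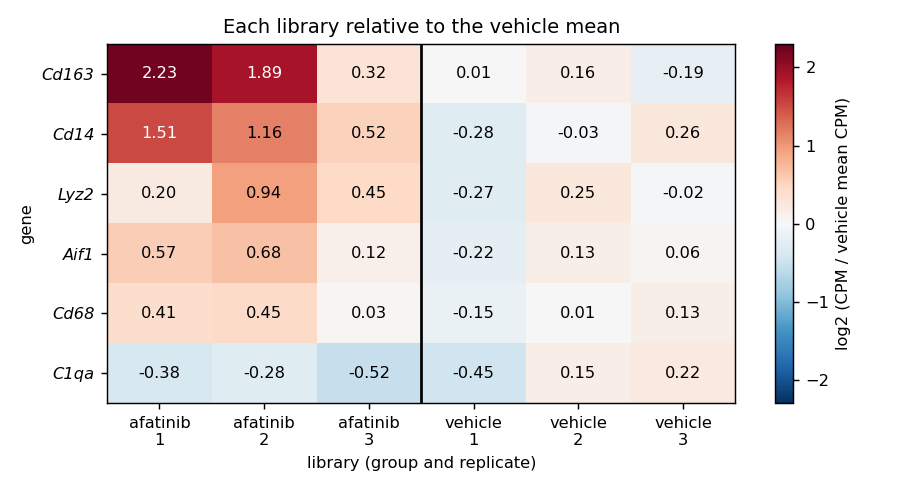
Log2 ratio of each library's CPM to the vehicle mean of the same gene, with afatinib libraries on the left, vehicle libraries on the right and genes ordered by their log2 fold change in edgeR. The values of Cd163 and Cd14 reach 2.23 and 1.51 in afatinib replicate 1, and in afatinib replicate 3 the values are 0.32 for Cd163, 0.12 for Aif1 and 0.03 for Cd68.

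Cd68 and Aif1 are among the markers stained to count macrophages in tissue sections. Cd68, the lysosomal glycoprotein, had 46.5, 47.7 and 35.8 CPM in afatinib replicates 1, 2 and 3, against 31.5, 35.3 and 38.3 CPM in vehicle replicates 1, 2 and 3. Afatinib replicates 1 and 2 lay above all vehicle libraries and replicate 3 lay among them. Cd68 averaged 43.3 ± 6.52 CPM in afatinib and 35.1 ± 3.41 CPM in vehicle libraries (SD, n = 3 each). Its log2 fold change in edgeR was 0.31 (adjusted p = 0.306), and limma voom's 95% interval ran from -0.08 to 0.68.

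Aif1 had 37.4, 40.3 and 27.3 CPM in afatinib replicates 1, 2 and 3, against 21.6, 27.6 and 26.3 CPM in vehicle replicates 1, 2 and 3. The groups overlapped through afatinib replicate 3 and vehicle replicate 2 alone, whose values were nearly the same. Aif1 averaged 35.0 ± 6.80 CPM in afatinib and 25.2 ± 3.11 CPM in vehicle libraries (SD, n = 3 each). Its log2 fold change in edgeR was 0.48 (unadjusted p = 0.0394, adjusted p = 0.238), with a 95% interval of 0.01 to 0.93 in limma voom. Without afatinib replicate 3 the adjusted p in edgeR was 0.0857 for Cd68 and 0.0532 for Aif1, and DESeq2 called both, with adjusted p-values of 0.0397 for Cd68 and 0.00743 for Aif1. In that fit DESeq2 called 4 of the 6 members as higher, where 12.1% of features with an adjusted p were called as higher. With all 6 libraries DESeq2 called neither (adjusted p = 0.374 for Cd68 and 0.217 for Aif1). With any other library left out, edgeR's adjusted p lay between 0.346 and 0.586 for Cd68 and between 0.337 and 0.504 for Aif1. DESeq2 called neither gene in those fits. Its adjusted p there lay between 0.338 and 0.662 for Cd68 and between 0.297 and 0.533 for Aif1.

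The remaining markers are secreted proteins. Lysozyme, the product of Lyz2, cuts the cell walls of bacteria. Lyz2 had 433, 722 and 517 CPM in afatinib replicates 1, 2 and 3, against 313, 447 and 372 CPM in vehicle replicates 1, 2 and 3. Here replicate 1, the highest afatinib library for Cd163 and Cd14, was the lowest of its group and lay below vehicle replicate 2. Lyz2 averaged 557 ± 149 CPM in afatinib and 377 ± 67.6 CPM in vehicle libraries (SD, n = 3 each). The log2 fold change in edgeR was 0.56 (adjusted p = 0.275), with a 95% interval of -0.05 to 1.12 in limma voom. When CPM were taken over total counts alone, Lyz2 had 480, 802 and 473 CPM in afatinib replicates 1, 2 and 3, against 301, 406 and 372 CPM in vehicle replicates 1, 2 and 3, and the groups no longer overlapped. The share of all tested features without overlap was not computed for that scaling. That scaling moved the median log2 fold change of all tested features to 0.12, so 0.12 of the log2 fold change of 0.70 it gave for Lyz2 was shared by the median feature. In RefSeq the nearest coding genes to Lyz2 are Cpsf6 and Lyc2, the second of them another lysozyme gene. The sources used here do not say how reads shared between related genes were counted, so the Lyz2 level is uncertain in that respect.

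C1qa encodes the A chain of C1q, which starts the classical complement pathway and coats dying cells for uptake, and macrophages are its main source. C1qa had 137, 147 and 124 CPM in afatinib replicates 1, 2 and 3, against 130, 197 and 207 CPM in vehicle replicates 1, 2 and 3. The afatinib libraries lay close together, well below vehicle replicates 2 and 3, and vehicle replicate 1 lay among them. C1qa averaged 136 ± 11.4 CPM in afatinib and 178 ± 41.7 CPM in vehicle libraries (SD, n = 3 each). The log2 fold change in edgeR was -0.39 (adjusted p = 0.324), with a 95% interval of -0.86 to 0.12 in limma voom, and 21.5% of the tested features had a lower value. Without vehicle replicate 1 the log2 fold change was -0.57, and DESeq2 then called C1qa (adjusted p = 0.0326, where 1.26% of features with an adjusted p were called as lower), while edgeR did not (adjusted p = 0.437). Vehicle replicate 1 was the lowest vehicle library for C1qa, so leaving it out raised the vehicle mean. With all 6 libraries DESeq2 did not call C1qa (adjusted p = 0.372). With any other library left out neither test called it. The adjusted p then lay between 0.399 and 0.708 in DESeq2 and between 0.343 and 0.571 in edgeR. For C1qa alone among the 6, afatinib replicate 3 lay farther from the vehicle mean than afatinib replicates 1 and 2. In RefSeq its nearest coding genes are C1qc and C1qb, the other chains of C1q, which were not analysed here because the tables hold no symbols.

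**Figure D3:**
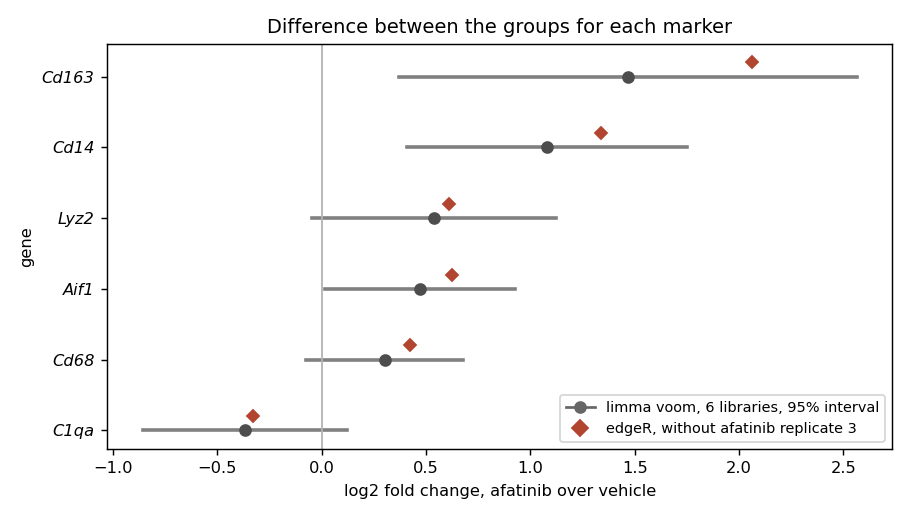
Log2 fold change of afatinib over vehicle for each marker: grey points and lines are limma voom estimates from 6 libraries with 95% intervals, and red diamonds are edgeR estimates without afatinib replicate 3. The intervals of Cd163, Cd14 and Aif1 lie above 0, those of Lyz2, Cd68 and C1qa include 0, and without afatinib replicate 3 the values of Cd163 and Cd14 are 2.06 and 1.34. The intervals are for single genes and not adjusted. Limma voom had 2899 of 15497 features at an unadjusted p under 0.05, and its adjusted p was 0.23 for Cd163, 0.22 for Cd14 and 0.261 for Aif1.

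**Figure D4:**
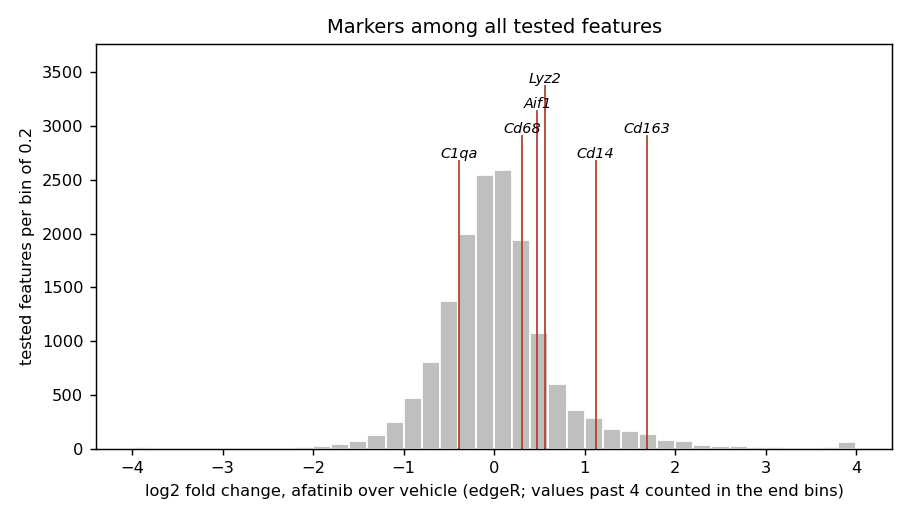
Number of tested features (bars, 0.2 log2 units wide) by log2 fold change in edgeR, with red lines at the 6 markers. Cd163 at 1.68 and Cd14 at 1.12 lie in the right tail, the other 4 markers lie within the bulk of the 15497 features, and C1qa at -0.39 is on the left of 0.

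The spread between libraries differed by gene and group. The coefficient of variation of Cd163 was 55.1% in afatinib and 12.02% in vehicle libraries, and that of Cd14 was 32.6% in afatinib and 18.7% in vehicle libraries. These afatinib values rest on afatinib replicate 3: without it the coefficient was 16.3% for Cd163 and 17.3% for Cd14, the second of them below the vehicle value. For C1qa the coefficient was 8.39% in afatinib and 23.5% in vehicle libraries, but without vehicle replicate 1 the vehicle value was 3.51%, below that of the afatinib libraries. Each left-out library was the one farthest from the mean of its group, so a smaller spread was given by that choice. These smaller coefficients also rest on fewer libraries than the values of the other group beside them. The biological coefficient of variation that edgeR fitted was 40.8% for Cd163, against a median of 25.2% over all tested features, and lay between 18.5% and 26.5% for the other 5 members. Of the 15 pairs, Cd68 and Aif1 had the smallest distance: their centred log2 CPM profiles over the 6 libraries differed by a root mean square of 0.11 log2 units. Such a distance also grows with the size of each gene's changes, and distances between pairs of other features were not computed. The largest distance, 1.09, was between Cd163 and C1qa, and Cd163 and Cd14 differed by 0.44.

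Ratios between markers within a library do not depend on how libraries are scaled to each other. All 5 other markers were higher relative to C1qa after afatinib, and in each of the 5 ratios the groups did not overlap. C1qa was the only marker with a lower afatinib mean, so the direction of these differences was already given by the levels above. The log2 ratio of Cd163 to C1qa counts was 1.92, 1.49 and 0.16 in afatinib replicates 1, 2 and 3, against -0.22, -0.67 and -1.09 in vehicle replicates 1, 2 and 3. Its mean was 1.19 ± 0.92 in afatinib and -0.66 ± 0.44 in vehicle libraries (SD, n = 3 each), a difference of 1.85. For Cd14 over C1qa the log2 ratio was -0.55, -1.003 and -1.39 in afatinib replicates 1, 2 and 3, against -2.27, -2.61 and -2.40 in vehicle replicates 1, 2 and 3. Afatinib replicate 3, the lowest of its group in both ratios, was still above all vehicle libraries. Without afatinib replicate 3 the difference was 2.36 for Cd163 over C1qa and 1.65 for Cd14 over C1qa. Without afatinib replicate 1 it was 1.48 for Cd163 over C1qa and 1.23 for Cd14 over C1qa. These were the largest and smallest differences with 1 library left out. With all 6 libraries, the differences of the mean log2 ratio to C1qa were 1.44 for Cd14, 0.91 for Lyz2, 0.83 for Aif1 and 0.66 for Cd68. These 5 ratios share the C1qa counts and are not separate observations.

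Of the 15 pairs of markers, 8 had ratios that did not overlap between the groups. All of them include C1qa, Cd163 or Cd14, and the share without overlap among pairs of other features was not computed. Each of these 8 had p = 0.1 in a two-sided exact permutation test, the smallest value that 3 against 3 libraries allow, and 0.188 after Benjamini-Hochberg adjustment over the 15 pairs. The other 3 pairs without overlap were Cd68 over Cd163, Cd68 over Cd14 and Cd14 over Aif1. The log2 ratio of Cd68 to Cd163 averaged -2.85 ± 0.80 in afatinib and -1.66 ± 0.27 in vehicle libraries (SD, n = 3 each), a difference of -1.19. This difference was -1.64 without afatinib replicate 3 and -0.87 without afatinib replicate 1. The log2 ratio of Cd68 to Aif1 averaged 0.32 ± 0.07 in afatinib and 0.48 ± 0.11 in vehicle libraries (SD, n = 3 each), with overlap (p = 0.2 in the same exact permutation test). The ratio of Cd163 to Cd14 overlapped too, with a difference of 0.40 (exact permutation p = 0.3). Counted on their own levels, Cd163 and Cd14 also had the smallest permutation p of 0.1, and the other 4 markers had 0.2 or 0.3.

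**Figure D5:**
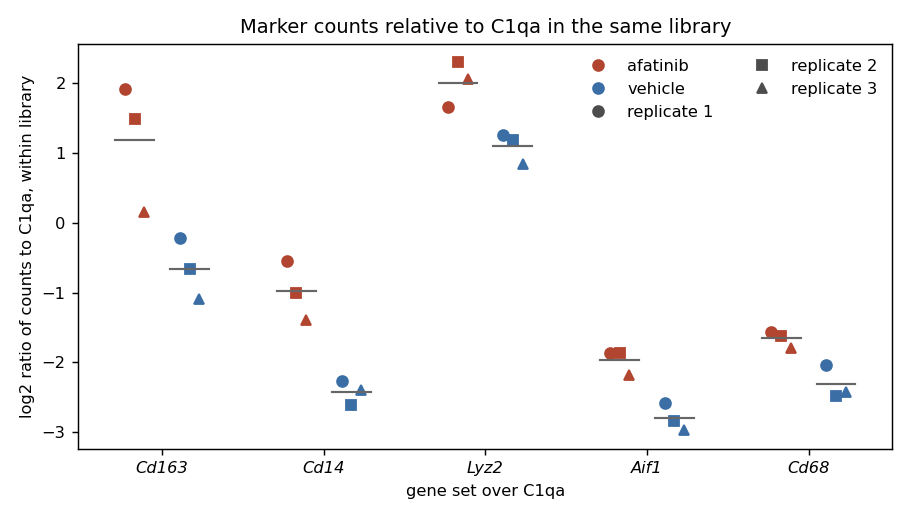
Log2 ratio of each marker's counts to the C1qa counts of the same library, with afatinib libraries in red on the left, vehicle libraries in blue on the right, symbols for replicates and lines for group means. In all 5 ratios every afatinib library lies above every vehicle library, with the widest gap between means for Cd163 (1.85). C1qa was the only marker with a lower afatinib mean.

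The 6 markers summed to 1267, 1442 and 890 CPM in afatinib replicates 1, 2 and 3, against 635, 863 and 780 CPM in vehicle replicates 1, 2 and 3. The sums averaged 1199 ± 282 CPM in afatinib and 759 ± 116 CPM in vehicle libraries (SD, n = 3 each), and the afatinib mean without replicate 3 was 1354 CPM. Without Cd163 the sums were 748, 1030 and 751 CPM in afatinib replicates 1, 2 and 3, against 523, 739 and 682 CPM in vehicle replicates 1, 2 and 3. These averaged 843 ± 162 CPM in afatinib and 648 ± 112 CPM in vehicle libraries (SD, n = 3 each), and the afatinib mean without replicate 3 was 889 CPM. The groups of these sums did not overlap, but only narrowly, with 748 CPM in afatinib replicate 1 and 739 CPM in vehicle replicate 2. Lyz2 was the largest part of this sum in every library, in CPM that are not divided by gene length, so the sum weighs Lyz2 most. Sums of other features were not computed for comparison. The features whose profile lay nearest to the mean centred profile of the 6 markers, among 11660 other features with a mean of at least 5 CPM, were ENSRNOG00000013920 and ENSRNOG00000025430. They lay at root mean square distances of 0.05 and 0.06 log2 units over the 6 libraries, against a median of 0.46 for all 11660 features. Both were picked as the nearest, so distances under that median were given by the choice. The tables do not pair these identifiers with gene names. Among the markers Aif1 lay closest to the mean profile of the 6 markers, at 0.08, and Cd163 farthest from it, at 0.61. Each marker is itself part of that mean.

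The sequence before the start of 3 of these genes is shown, because they span the responses seen: Cd163 with the largest difference, C1qa with the opposite sign, and Cd68 as a common marker between them. The sequences are from RefSeq (GRCr8), are given 5′ to 3′ on the strand of the gene, and end at the base before the gene's outermost start. Capitals mark matches to motifs named below.
Cd163, chr4:158770524-158770750, plus strand: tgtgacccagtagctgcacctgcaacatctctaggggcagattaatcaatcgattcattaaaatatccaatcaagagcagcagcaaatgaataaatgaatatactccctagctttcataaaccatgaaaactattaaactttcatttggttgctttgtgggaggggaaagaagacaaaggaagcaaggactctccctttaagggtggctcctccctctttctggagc
C1qa, chr5:154419934-154420183, minus strand: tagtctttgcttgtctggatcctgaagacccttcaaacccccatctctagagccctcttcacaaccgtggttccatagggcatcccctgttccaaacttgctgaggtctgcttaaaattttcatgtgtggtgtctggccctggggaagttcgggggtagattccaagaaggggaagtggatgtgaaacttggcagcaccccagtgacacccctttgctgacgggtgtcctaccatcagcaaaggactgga
Cd68, chr10:54882442-54882691, minus strand: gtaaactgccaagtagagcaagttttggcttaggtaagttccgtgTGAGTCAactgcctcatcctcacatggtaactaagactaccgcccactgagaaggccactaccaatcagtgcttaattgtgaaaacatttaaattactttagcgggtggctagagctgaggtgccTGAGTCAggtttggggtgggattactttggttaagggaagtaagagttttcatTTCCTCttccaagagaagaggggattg

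Motifs of 3 factor families known from macrophage genes were searched on both strands of the windows from 250 bases before to 50 bases after the annotated start: the PU.1 core GAGGAA, the C/EBP letters TTGCNNAA and the AP-1 letters TGANTCA. No match of one motif overlapped a match of another in these windows. The window of Cd68 held 2 matches to the PU.1 core and 2 to the AP-1 letters, and 1 of the PU.1 matches lies after the start and outside the printed part. The Cd14 window held 2 matches to the PU.1 core, but that window lies inside the gene's outermost RefSeq span. The Lyz2 window held 1 match to the PU.1 core and 1 to the C/EBP letters. The windows of Cd163 and C1qa held none of the 3 motifs. Of 33469 such windows in the table, 27.6% held the PU.1 core, 10.6% the C/EBP letters and 7.3% the AP-1 letters. These matches describe letters only. The table of windows used here has no entry for Aif1.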

How the data were processed

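Whole back skin of rats given afatinib or vehicle gave 3 RNA-seq libraries per treatment. Per the labels' protocols, RNA was extracted with Trizol and 1 µg per sample went into Illumina libraries. HISAT2 2.0.5, featureCounts 1.5.0-p3 and DESeq2 1.16.1 are named in the submitters' processing notes. For genome build, annotation and strand setting: not given in the sources used here. The deposited values are raw counts per feature in a table for each library, as the whole numbers and unequal totals show.

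Samples were grouped and numbered by their titles. Afatinib replicates 1, 2 and 3 are headed 3, 4 and 5 in the deposited columns. From the counts, features were filtered with filterByExpr, scaled by TMM and tested with edgeR 4.0.16 (R 4.3.3, robust quasi-likelihood, group as the only term) over all 15497 features left. Standard errors and 95% intervals come from limma 3.58.1 with voom, and the intervals are for single genes, without adjustment. DESeq2 1.42.0 was run with default settings (independent filtering at 0.1) and gave no adjusted p for 4975 of 21840 features with a count. For profiles, 2 was the prior count of log2 CPM, and ratios within a library had 0.5 added to each count. The fits were tested on simulated data. Alternatives were other scalings and filters, limma voom, DESeq2, a replicate block and each library left out.

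The 6 members and the lists were chosen with earlier results of these data known. All 6 members are named, together with the 2 other features nearest to their mean profile. Lists of other macrophage genes and of markers of other cell types were not analysed here: of 33692 features, 0 matched the RefSeq gene table by an identifier. The members were matched to RefSeq sequences by symbol.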

Additional observations from a re-analysis of the deposited data

How the results depend on the processing

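Every one of the 20 alternatives kept the direction of each of the 6 markers. With all 6 libraries, DESeq2 alone called any of them, Cd163 and Cd14, with log2 fold changes of 1.69 and 1.13. Leaving out 1 library at a time, in edgeR and DESeq2, moved the log2 fold change between 0.23 and 0.43 for Cd68, 1.31 and 2.08 for Cd163, 0.88 and 1.35 for Cd14, 0.37 and 0.63 for Aif1, 0.34 and 0.72 for Lyz2, and -0.57 and -0.26 for C1qa. The upper ends for Cd68, Cd163, Cd14 and Aif1 came from DESeq2 without afatinib replicate 3 (edgeR gave 2.06 for Cd163 and 1.34 for Cd14), and the lowest value for C1qa was without vehicle replicate 1. DESeq2 also called Cd163 without vehicle replicate 2 (1.78) and Cd14 without vehicle replicate 3 (1.28), and called C1qa without vehicle replicate 1 at -0.57. Scaling by total counts alone gave 0.44 for Cd68 and -0.26 for C1qa.

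Over all features edgeR called 0 under other scalings, under either filter, with limma voom in its place and with the replicate block, and DESeq2 called 971 (559 higher, 412 lower). At an unadjusted p under 0.05 edgeR had 3023 features, limma voom 2899 and DESeq2 3616. With 1 library left out the count ran from 0 to 1627 in edgeR, where it was 1627 without afatinib replicate 3, 51 without vehicle replicate 2 and 1 without vehicle replicate 1. DESeq2 called 326 when afatinib replicate 1 was left out, 259 for afatinib replicate 2 and 4043 for afatinib replicate 3, and 398, 490 and 724 for vehicle replicates 1, 2 and 3. The causes were not tested.

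The replicate numbers share no stated animal or batch. Across features, the deviations of same-numbered libraries had correlations of 0.20, -0.21 and -0.39 (numbers 1, 2 and 3). Those of differently numbered libraries ran from -0.365 (afatinib replicate 1 with vehicle replicate 2) to 0.432 (afatinib replicate 3 with vehicle replicate 2). With the replicate block no marker was called in edgeR, and Cd163 and Cd14 had log2 fold changes of 1.49 and 1.08 (adjusted p = 0.386 for both).

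A prior count of 2 changed no direction among the 15 ratios. The ratio of Aif1 to Lyz2, with a difference of -0.08, changed sign in 2 cases, to 0.01 without afatinib replicate 2 and 0.049 without afatinib replicate 3, and ran down to -0.30 without afatinib replicate 1. The DESeq2 fits with a library left out and the ratios and coefficients of variation with a library left out were added after seeing the data.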
